A study of Mus musculus with 12 samples.

Results

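The 9 genes described here encode subunits of the IL-12 family (Il12a, Il12b, Il23a, Il27 and Ebi3), the cytokine IL-15 and its private receptor chain (Il15 and Il15ra), and the cytokines IL-10 and IL-6 (Il10 and Il6). They were taken by symbol from a count table of 48440 genes of mouse bone-marrow-derived macrophages, which are macrophages grown in culture from marrow cells, and all 9 were found once each. The 12 RNA-seq libraries fell into 6 groups of 2 libraries each. These were libraries labelled CKO and libraries labelled WT after 24 h with interferon-γ (IFN-γ, 100 U/mL), libraries labelled CKO and labelled WT after 24 h with interleukin-4 (IL-4, 20 ng/mL), and untreated libraries labelled CKO and labelled WT. The series concerns the transcription factor IRF8 in macrophages. The labels spell out neither CKO, nor the deleted gene or exons, nor the driver of the deletion, nor the strain, sex or age of the mice, nor if paired libraries of a group are from separate animals, so p-values measure the spread between these libraries, which may be technical. No microbial ligand is named for any group.

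The IL-12 family works in pairs. The Il12b product pairs with the Il12a product to form IL-12 and with the Il23a product to form IL-23, and the Il27 product pairs with the Ebi3 product to form IL-27. Macrophages and dendritic cells make IL-12, IL-23 and IL-6 chiefly after microbial stimulation, and IL-12 drives IFN-γ production by T and NK cells. IRF8 is itself known as an activator of Il12b and Il27 in macrophages. IL-15 is carried to the cell surface by the chain encoded by Il15ra and is shown there to NK cells and CD8 T cells, while IL-10 restrains macrophage activation.

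Of the 9 genes, 5 (Il27, Ebi3, Il15, Il15ra and Il10) had counts that could be read and passed the filter on low counts, as did 16292 genes of the table. The other 4 (Il12a, Il12b, Il23a and Il6) were too low to read in every group. Library totals ran from 21287725 to 32717379 counts. Levels are given as CPM, the usual depth-scaled unit of RNA-seq counts, with a further scaling between libraries for the genes that passed the filter. A difference was called when the adjusted p of edgeR's quasi-likelihood test, taken over all 16292 genes of a comparison, was under 0.05. Statements that groups did or did not overlap describe 2 libraries each and are no test. The share of all genes whose groups separate was not computed. One untreated library labelled CKO, number 1, stood apart with 1.52% of its counts from mitochondrial genes, against 2.12% to 3.25% in the other 11 libraries, and calls of the 9 genes and counts over the lists of receptors, signalling genes and regulators that change without it are given beside them.

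Irf8 went against a loss of its transcript in the libraries labelled CKO. It stood at 1170 and 1200 CPM in CKO and 502 and 513 CPM in WT after IFN-γ, at 139 and 169 CPM in CKO and 65.7 and 70.9 CPM in WT after IL-4, and at 248 and 293 CPM in CKO and 90.9 and 91.2 CPM in WT without cytokine. A gene-level count checks the labels only if it covers the deleted exons, and no source at hand names those exons, so each CKO direction below is that of libraries with this label. Macrophage markers differed between the labels in both directions. Without cytokine, Csf1r averaged 1640 CPM in CKO and 952 CPM in WT and Adgre1 averaged 1140 CPM in CKO and 702 CPM in WT. Mrc1 averaged 1050 CPM in CKO and 2090 CPM in WT, Fcgr1 averaged 8.72 CPM in CKO and 27.4 CPM in WT, and C1qa averaged 7.15 CPM in CKO and 132 CPM in WT. The summed level of the macrophage markers was 4580 to 4730 CPM in CKO and 9410 to 9670 CPM in WT after IFN-γ, 7610 to 8080 CPM in CKO and 14000 to 15100 CPM in WT after IL-4, and 5290 to 5600 CPM in CKO and 16600 to 17200 CPM in WT without cytokine. That sum includes Lyz2, a lysozyme gene of myeloid cells, which stood at 12.6 to 28 CPM in libraries labelled CKO and 5840 to 11900 CPM in libraries labelled WT. The gap between the labels in that sum is about the size of the gap in Lyz2. The sum therefore does not show the other macrophage markers lower as a set.

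Of the readable genes, only Il15ra and Ebi3 had a promoter window in the set used. Their sequences are shown because Il15ra rose with IFN-γ in both genotypes while Ebi3 was called with IFN-γ in neither. They come from RefSeq on GRCm38.p6, as windows of 300 bases around an annotated gene start, all on the plus strand of their chromosome. Il15ra has a pair of annotated starts, with windows at chr2:11705043-11705342 and chr2:11705462-11705761, and the Ebi3 window is chr17:55952373-55952672. Capitals mark matches, on either strand, to GAAANNGAA, a tandem half-site of interferon regulatory factors, and to a loose kappaB pattern, GGG and CC spaced by any 5 bases.
Il15ra, first start: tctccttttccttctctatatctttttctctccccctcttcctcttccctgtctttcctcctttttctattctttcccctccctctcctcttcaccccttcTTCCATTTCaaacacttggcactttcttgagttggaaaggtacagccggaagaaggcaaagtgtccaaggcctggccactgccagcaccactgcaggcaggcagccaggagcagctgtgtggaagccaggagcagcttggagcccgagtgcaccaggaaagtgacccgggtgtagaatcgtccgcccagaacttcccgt
Il15ra, second start: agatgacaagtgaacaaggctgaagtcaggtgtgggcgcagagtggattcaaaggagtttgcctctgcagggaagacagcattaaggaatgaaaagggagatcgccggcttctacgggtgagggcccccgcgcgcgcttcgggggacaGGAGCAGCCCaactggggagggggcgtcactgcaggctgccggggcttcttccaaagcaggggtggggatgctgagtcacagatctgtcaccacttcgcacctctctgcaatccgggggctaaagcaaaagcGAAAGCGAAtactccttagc
Ebi3: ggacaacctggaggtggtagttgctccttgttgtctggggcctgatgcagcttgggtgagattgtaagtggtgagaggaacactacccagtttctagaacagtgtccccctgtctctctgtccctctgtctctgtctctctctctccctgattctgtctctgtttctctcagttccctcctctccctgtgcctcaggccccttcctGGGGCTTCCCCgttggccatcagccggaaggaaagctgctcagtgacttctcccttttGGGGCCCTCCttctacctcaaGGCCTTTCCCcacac

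The GAAANNGAA pattern was chosen after these sequences had been read, and 8.56% of the 32851 RefSeq promoter windows hold it. It was found once at each Il15ra start, as TTCCATTTC on the minus strand at position -149 from the first start and as GAAAGCGAA at position 31 from the second start, and it was not found in the Ebi3 window. No match was found in the 3 windows for GAAA and GAAA spaced by 2 bases (an interferon response core, held by 3.44% of windows), GGAA and GAAA spaced by 2 bases (an ETS and IRF composite, 2.72%) or TTCNNNGAA (a gamma-activated site, 8.3%). Some of these patterns share letters with each other. The kappaB pattern, held by 50.8% of windows, had 4 matches in the Ebi3 window, of which those at -44 and -43 overlap, and 1 match in the window of the second Il15ra start. These matches describe letters in a window and not binding. Windows of Il12a, Il12b and Il6 were also searched and held no GAAANNGAA match. The set held no window for Il27, Il15, Il10 or Il23a, so these genes were not searched.

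IL-12, IL-23 and IL-6 transcripts were barely seen. Il12a had 2 counts over all 12 libraries, 1 in a CKO and 1 in a WT library after IL-4. Il23a also had 2 counts, 1 in a WT library after IL-4 and 1 in an untreated CKO library. Il6 had 5 counts, of which 4 lay in WT library 2 after IL-4 and 1 in an untreated CKO library. Il12b, the subunit shared by IL-12 and IL-23, was the most often seen of the 4, with 17 counts in 9 of 12 libraries. It had 1 and 1 counts in CKO and 0 and 1 in WT after IFN-γ, 1 and 2 in CKO and 0 and 0 in WT after IL-4, and 2 and 2 in CKO and 4 and 3 in WT without cytokine. Over all libraries that is 0.0504 CPM (exact Poisson 95% interval 0.0294 to 0.0808, for counting error only). A library in which a gene had no count allows up to 3 counts, or 0.0917 to 0.141 CPM depending on its total. No change between groups in these 4 genes was detectable at this depth, and none was tested.

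**Figure D1:**
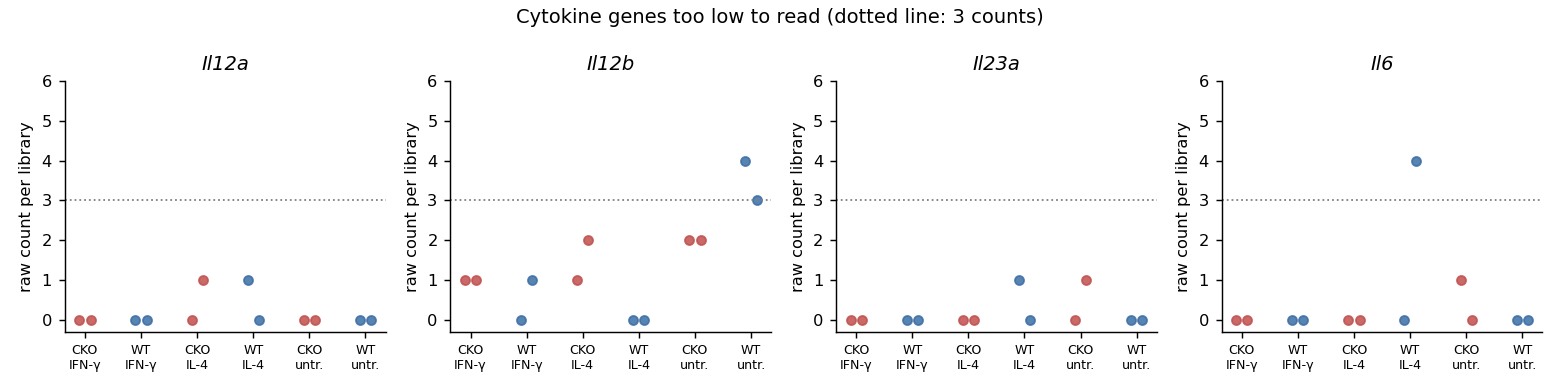
Raw counts per library (vertical axis) of Il12a, Il12b, Il23a and Il6 in the 6 groups along the horizontal axis, with CKO libraries in red and WT libraries in blue and the dotted line at 3 counts. All points but 3 lie at 0 to 2, and the highest are 4 counts of Il12b in an untreated WT library and 4 of Il6 in a WT library after IL-4.

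Of the readable IL-12 family subunits, Il27 rose with IFN-γ in both genotypes and Ebi3 was not called in either. Il27 (chromosome 7, bases 126589010 to 126594941, minus strand, GRCm38) stood at 9.44 and 9.78 CPM in CKO libraries and 8.08 and 11 CPM in WT libraries after IFN-γ. Without cytokine it stood at 0.645 and 0.519 CPM in CKO and 0.315 and 0.273 CPM in WT. All 4 IFN-γ libraries were far above all untreated ones, and the genotypes overlapped after IFN-γ. The increase over untreated libraries was 4.05 ± 0.23 on the log2 scale in CKO (SE, 2 libraries per group, 16.6-fold, adjusted p = 8.25e-08) and 5.01 ± 0.26 in WT (32.2-fold, adjusted p = 3.75e-08). Both kept their direction and their call under all 12 alternatives run for each.

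The smaller increase of Il27 in CKO libraries goes with a higher untreated level, of 17 and 18 counts in CKO against 9 and 8 in WT. That untreated difference was 0.96 ± 0.35 (adjusted p = 0.0806, fold 1.95) and was not called. Nor was the difference between the 2 responses, -0.96 ± 0.39 (CKO minus WT, adjusted p = 0.307). After IFN-γ itself the genotypes differed by 0.00 ± 0.17 (adjusted p = 0.99).

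Il27 was near its lowest after IL-4, with 0.277 and 0.322 CPM in CKO and 0.241 and 0.236 CPM in WT, which rest on 5 to 11 counts per library. The change against untreated was -0.92 ± 0.34 in CKO (adjusted p = 0.0774) and -0.29 ± 0.43 in WT (adjusted p = 0.788), neither called. Il27 shares 103 exonic bases with Apobr on the opposite strand, a gene at 87.3 to 169 CPM, and the strand setting of the counting is not given. With IFN-γ, Apobr changed by 0.56 ± 0.18 in CKO (adjusted p = 0.0453), and its value was -0.13 ± 0.18 in WT (adjusted p = 0.698).

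Ebi3 encodes the partner subunit of IL-27 and lies on chromosome 17 (bases 55952640 to 55957022, plus strand). After IFN-γ it stood at 24.3 and 21.7 CPM in CKO and 15.4 and 22 CPM in WT, against 18.6 and 24.4 CPM in CKO and 15.3 and 21.3 CPM in WT without cytokine. The IFN-γ and untreated libraries overlapped in both genotypes. The fitted changes were 0.09 ± 0.20 in CKO (adjusted p = 0.788) and 0.03 ± 0.20 in WT (adjusted p = 0.938), and both changed sign when libraries were scaled by their totals alone.

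After IL-4, Ebi3 stood at 14.5 and 13.2 CPM in CKO and 13.2 and 15.4 CPM in WT. In CKO libraries this was below both untreated libraries, a fall of 0.64 on the log2 scale (SE 0.20, adjusted p = 0.0423), whereas in WT the groups overlapped by a small margin (-0.36 ± 0.21, adjusted p = 0.325). The difference between these responses was -0.28 ± 0.29 (adjusted p = 0.84). The CKO call was lost in a fit of the compared groups alone (adjusted p = 0.0918) and without CKO IL-4 library 1 (0.0666), CKO IL-4 library 2 (0.211) or untreated CKO library 2 (0.163). Ebi3 shares 270 exonic bases with the antisense gene Gm16712, which had 2 to 9 counts per library against 273 to 847 for Ebi3.

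Per kilobase of exon, Ebi3 exceeded Il27 in every group. This scale corrects for exon length only. It does not correct for capture by the exome-type library kit, which may differ between genes, or for the exonic bases shared with Apobr and Gm16712. The mean level of Ebi3 was 19.9 CPM per kb in CKO and 16.2 in WT after IFN-γ, where that of Il27 was 9.41 in CKO and 9.36 in WT. Without cytokine the gap was wider, with Ebi3 at 18.6 in CKO and 15.9 in WT and Il27 at 0.57 in CKO and 0.288 in WT. On the same scale Il12b, the subunit of IL-12 and IL-23, did not pass 0.0625 CPM per kb in any group.

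**Figure D2:**
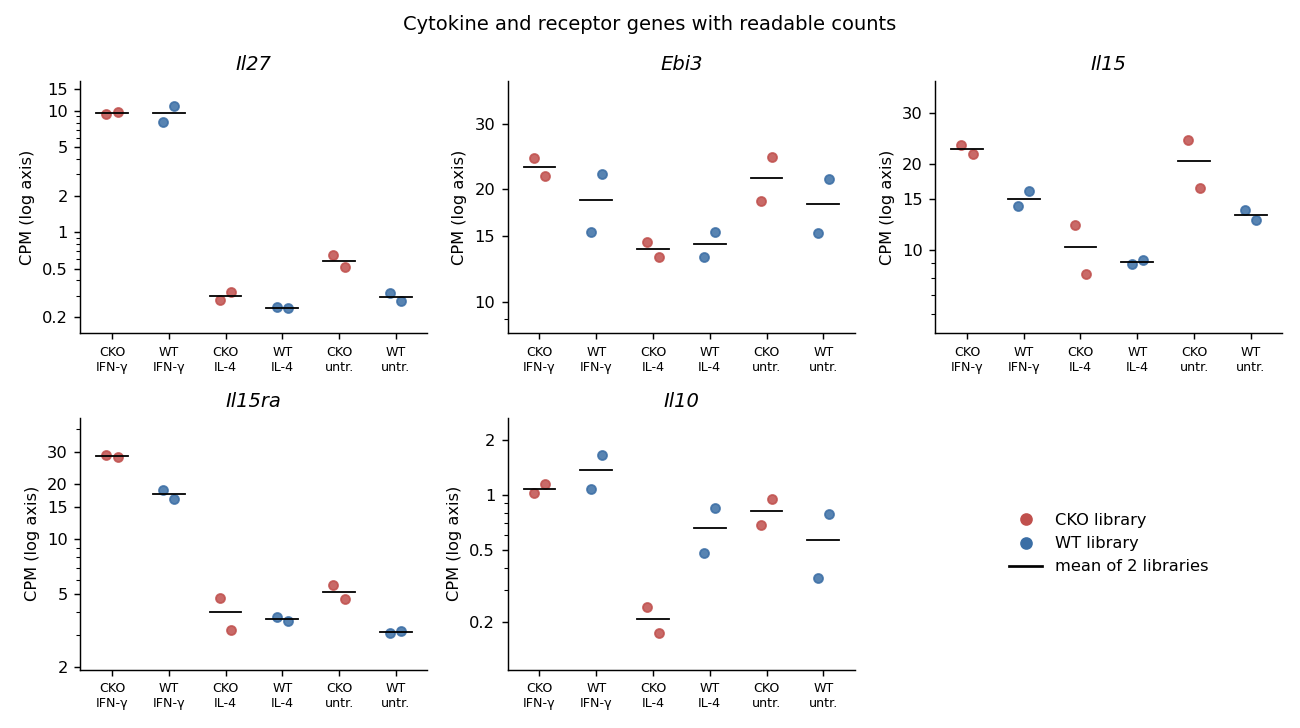
CPM of the 5 readable genes in each library on log axes, with groups along the horizontal axis, CKO libraries in red, WT libraries in blue and a bar at the mean of 2 libraries. Il27 and Il15ra form a high IFN-γ pair of groups, each group of Ebi3 overlaps the next in order of level, and Il10 is lowest in CKO libraries after IL-4 at 0.243 and 0.176 CPM.

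Il15ra, the receptor chain of IL-15, rose with IFN-γ in both genotypes and was higher in libraries labelled CKO, while Il15 itself was not called in these comparisons. Il15ra (chromosome 2, bases 11705290 to 11734317, plus strand) stood at 29 and 28.3 CPM in CKO and 18.7 and 16.6 CPM in WT after IFN-γ. Without cytokine it stood at 5.62 and 4.7 CPM in CKO and 3.08 and 3.14 CPM in WT. The 4 groups did not overlap, with IFN-γ above untreated and CKO above WT in both. Against untreated libraries it rose by 2.48 ± 0.17 in CKO (5.57-fold, adjusted p = 5.97e-07) and by 2.50 ± 0.18 in WT (5.66-fold, adjusted p = 9.26e-07), under all 12 alternatives in each, and the responses differed by -0.02 ± 0.24 (adjusted p = 0.99).

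Il15ra was higher in libraries labelled CKO than in those labelled WT after IFN-γ, by 0.70 ± 0.16 (1.63-fold, adjusted p = 0.011), and without cytokine, by 0.73 ± 0.19 (1.65-fold, adjusted p = 0.0244). The IFN-γ call was lost without CKO IFN-γ library 1 (adjusted p = 0.0991), CKO IFN-γ library 2 (0.0567) or WT IFN-γ library 2 (0.0761). The untreated call was lost in a fit of the compared groups alone (0.0888) and without CKO library 1, the library that stood apart (0.61, adjusted p = 0.141), WT library 1 (0.116) or WT library 2 (0.11). After IL-4 the genotypes overlapped, at 4.78 and 3.16 CPM in CKO and 3.76 and 3.55 CPM in WT (0.12 ± 0.19, adjusted p = 0.87).

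Il15 (chromosome 8, bases 82331632 to 82403222, minus strand) stood at 23.2 and 21.6 CPM in CKO and 14.2 and 16 CPM in WT after IFN-γ, and at 24.2 and 16.5 CPM in CKO and 13.8 and 12.7 CPM in WT without cytokine. CKO libraries were above WT libraries in both conditions without overlap, but neither difference was called. It was 0.57 ± 0.20 after IFN-γ (1.48-fold, adjusted p = 0.067) and 0.62 ± 0.20 without cytokine (1.53-fold, adjusted p = 0.0504). Both lay near the threshold and passed it with DESeq2, at adjusted p = 0.0496 after IFN-γ and 0.0284 without cytokine. Of 11 alternatives, 4 called the IFN-γ difference (adjusted p 0.00371 to 0.309 over all) and 6 the untreated one (0.00168 to 0.373). Without untreated CKO library 1, the library that stood apart, the untreated difference was 0.33 (adjusted p = 0.373), and without untreated CKO library 2, the lower of that pair, it was 0.90 (adjusted p = 0.00573). IFN-γ itself moved Il15 by 0.14 ± 0.19 in CKO (adjusted p = 0.646) and 0.19 ± 0.20 in WT (adjusted p = 0.568).

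Il15 was lowest after IL-4, with 12.2 and 8.23 CPM in CKO and 8.93 and 9.22 CPM in WT. All 4 IL-4 libraries were below the untreated libraries of their label. In CKO it fell by 0.99 on the log2 scale (SE 0.20, adjusted p = 0.00484), a call lost in a fit of the compared groups alone (0.0675) and without CKO IL-4 library 2 (-0.73, adjusted p = 0.0531). In WT the change was -0.54 ± 0.21 (adjusted p = 0.123). It was called in 3 of 12 alternatives, which were a fit of the compared groups alone (0.00809), no filter on low counts (0.0107) and a replicate block within genotype (0.0144). The difference between the responses was -0.45 ± 0.29 (adjusted p = 0.773).

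Markers of other marrow cells moved with the label in the same libraries. Between the labels, 18.4% of all tested genes were called after IFN-γ, 2.96% after IL-4 and 18% without cytokine. Of 11 tested neutrophil markers, 10 were higher in CKO after IFN-γ, 8 after IL-4 and 10 without cytokine, and their summed level was 361 to 367 CPM in CKO and 54.6 to 66.7 CPM in WT after IFN-γ, 174 to 191 CPM in CKO and 33.2 to 41.6 CPM in WT after IL-4, and 179 to 314 CPM in CKO and 42.8 to 50.8 CPM in WT without cytokine. With untreated CKO library 1 left out, fewer neutrophil and fewer monocyte markers were called higher without cytokine. Of 8 monocyte markers, 7 were higher in CKO after IFN-γ, where the sum was 413 to 432 CPM in CKO and 160 to 204 CPM in WT, 5 after IL-4 (3 without CKO IL-4 library 1, 2 without WT IL-4 library 1 and 1 without WT IL-4 library 2), where it was 883 to 946 CPM in CKO and 601 to 880 CPM in WT, and 8 without cytokine, where it was 697 to 753 CPM in CKO and 289 to 312 CPM in WT. Summed dendritic cell markers were at 51.6 to 58 CPM in CKO and 69.6 to 81.1 CPM in WT after IFN-γ, at 39.4 to 44.9 CPM in CKO and 29.2 to 31.1 CPM in WT after IL-4, and at 68.3 to 72.1 CPM in CKO and 27.3 to 27.9 CPM in WT without cytokine. That sum includes Clec9a, which rose with IFN-γ by 4.58 in CKO (adjusted p = 6.69e-07) and 9.05 in WT (adjusted p = 3.64e-09). After IFN-γ, Clec9a was lower in CKO than in WT (-3.01, adjusted p = 3.63e-06). The sum after IFN-γ is therefore not read as a level of dendritic cells. The part of all these markers in the levels of Il15, Il15ra and the other genes was not tested, and in bulk RNA fewer cells of a type and less RNA per cell cannot be told apart. Of 11 tested rows of macrophage markers, 5 were higher (3 without either CKO IFN-γ library) and 4 lower in CKO after IFN-γ, 0 higher (2 without CKO IL-4 library 2) and 4 lower (2 without CKO IL-4 library 1 or WT IL-4 library 1) after IL-4, and 3 higher (0 without untreated WT library 2) and 4 lower without cytokine. Of 8 dendritic cell markers, 1 was higher (2 without WT IFN-γ library 1) and 3 lower after IFN-γ, 0 were called by edgeR after IL-4 (2 at an unadjusted p under 0.05, 0 by DESeq2), and 1 was higher (2 without untreated CKO library 2) and 1 lower (0 without untreated CKO library 1 or either untreated WT library) without cytokine. Of 12 lymphoid and mast cell markers, 2 were tested and 1, Cd4, was higher in CKO in each condition, while Cd3e, Cd3g, Ncr1, Mcpt4 and Fcer1a were at 0 in all libraries. The Cd4 call was lost after IFN-γ without CKO IFN-γ library 1 or either WT IFN-γ library, and after IL-4 without CKO IL-4 library 1 or either WT IL-4 library.

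The same markers also moved with the cytokines. Of all tested genes, 22.5% in CKO and 12.2% in WT were called with IL-4, and 26.6% in CKO and 24.2% in WT with IFN-γ. With IL-4, where Ebi3, Il15 and Il10 fell in CKO libraries, 1 of the 11 macrophage rows was higher and 4 lower than in untreated cells in each genotype (2 lower in WT without WT IL-4 library 2). Of the 8 monocyte markers, IL-4 raised 1 and lowered 3 in CKO and raised 1 and lowered 2 in WT. The marker raised was Chil3, by 2.76 in CKO (adjusted p = 1.93e-05) and 5.69 in WT (adjusted p = 4.04e-07). The summed monocyte markers after IL-4 include it and are not read as a level of monocytes. Cx3cr1, a chemokine receptor gene of monocytes, fell with IL-4 in CKO (-5.06 on the log2 scale, adjusted p = 2.02e-07) and in WT (-2.99, adjusted p = 9.27e-05). Cd4 fell with IL-4 in CKO (-2.05, adjusted p = 0.000425) and in WT (-1.53, adjusted p = 0.0222), a WT call lost without any 1 of the 4 WT libraries. IL-4 raised 2 dendritic cell markers (1 without CKO IL-4 library 2 or untreated CKO library 2) and lowered 1 in CKO, and raised 2 (1 without untreated WT library 1) and lowered 0 in WT. It lowered 1 neutrophil marker in CKO, with 6 without untreated CKO library 2 and 0 without any of the other 3 CKO libraries compared, and changed 0 in WT by edgeR (1 at an unadjusted p under 0.05, 0 by DESeq2).

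With IFN-γ, 4 macrophage rows rose and 3 fell in CKO, and 2 rose and 3 fell in WT. IFN-γ raised 5 monocyte markers and lowered 2 in CKO, and raised 4 and lowered 2 in WT. It raised 3 dendritic cell markers and lowered 1 (0 without untreated CKO library 2) in CKO, and raised 4 (2 without WT IFN-γ library 2) and lowered 0 in WT. It raised 5 neutrophil markers in CKO (1 without CKO IFN-γ library 1, 2 without CKO IFN-γ library 2 and 3 without untreated CKO library 2) and lowered 0 (1 without untreated CKO library 2), and raised 1 and lowered 1 in WT, the first lost without WT IFN-γ library 2 or untreated WT library 1 and the second without any 1 of the 4 WT libraries. Cd4 fell in CKO (-3.09, adjusted p = 1.65e-05) and in WT (-2.17, adjusted p = 0.00197). The part of these markers in the cytokine responses of the 9 genes was not tested.

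Il10 (chromosome 1, bases 131019845 to 131024974, plus strand) was low throughout, with 6 to 46 counts per library. After IFN-γ it stood at 1.02 and 1.15 CPM in CKO and 1.08 and 1.66 CPM in WT, against 0.683 and 0.952 CPM in CKO and 0.349 and 0.785 CPM in WT without cytokine. The IFN-γ libraries lay above the untreated ones in both genotypes. In CKO the change of 0.39 ± 0.39 was not called (adjusted p = 0.514), and in WT it rose by 1.27 ± 0.40 (2.41-fold, adjusted p = 0.0382). The responses differed by -0.88 ± 0.56 (adjusted p = 0.594). The WT call was lost with DESeq2 (0.0881), library totals (0.0501) or only the compared groups (0.0835), and without WT IFN-γ library 2 (0.91, adjusted p = 0.246) or untreated WT library 1 (0.80, adjusted p = 0.271).

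After IL-4, Il10 was at 0.243 and 0.176 CPM in CKO libraries and 0.483 and 0.844 CPM in WT libraries. Both CKO libraries lay below both WT libraries and below both untreated CKO libraries. Against untreated CKO it fell by 1.98 on the log2 scale (SE 0.50, adjusted p = 0.0151), to about 0.254 of the untreated level, a call lost without CKO IL-4 library 2 (adjusted p = 0.122) or untreated CKO library 2 (0.0574). In WT the change against untreated was 0.27 ± 0.45 (adjusted p = 0.775), and its sign turned without WT IL-4 library 2 (-0.25) or untreated WT library 1 (-0.21). CKO against WT after IL-4 was -1.70 ± 0.52 (adjusted p = 0.125), and the difference between the 2 responses was -2.24 ± 0.67 (adjusted p = 0.725). Neither was called. Without the filter on low counts the adjusted p was 0.0149 for the genotypes and 0.0351 for the responses. With a replicate block it was 0.0442 for the genotypes.

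The 9 genes as a list can be set beside all genes. IFN-γ raised 2 of the 5 tested members in CKO (Il27 and Il15ra), where 26.6% of all tested genes were called in either direction and 14.7% higher, and 3 of the 5 in WT (Il27, Il15ra and Il10), where 24.2% were called and 12.4% higher. Leaving out single libraries gave 2 to 3 in WT. IL-4 lowered 3 of the 5 in CKO (Ebi3, Il15 and Il10), where 22.5% were called and 11.3% lower, with 0 lowered without CKO IL-4 library 2 and 1 without untreated CKO library 2. IL-4 changed 0 of the 5 in WT by edgeR, where 12.2% were called, with 1 at an unadjusted p under 0.05 and 0 called by DESeq2. Il15 was called lower there in 3 of 12 alternatives, all of them other fits with edgeR. The median log2 change over the 5 was 0.39 in CKO and 1.27 in WT with IFN-γ, and -0.92 in CKO and -0.29 in WT with IL-4, against 0.00 over all tested genes in each.

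Between the labels, 1 of the 5 tested members (Il15ra) was higher in CKO after IFN-γ, where 18.4% of tested genes were called and 10.4% higher, and 1 (Il15ra) without cytokine, where 18% were called and 8.6% higher. After IL-4, 0 of 5 were called by edgeR, where 2.96% of genes were, with 1 at an unadjusted p under 0.05 and 0 called by DESeq2. Other fits with edgeR called Il10 lower in CKO there, without the filter on low counts (adjusted p = 0.0149) and with a replicate block (0.0442). No member differed between the labels in its response by edgeR, with 1 at an unadjusted p under 0.05 for IFN-γ, where 2.72% of genes were called, and 2 for IL-4, where 0.0368% were. DESeq2 called 0 in each, and edgeR without the filter on low counts called Il10 for IL-4 (adjusted p = 0.0351).

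**Figure D3:**
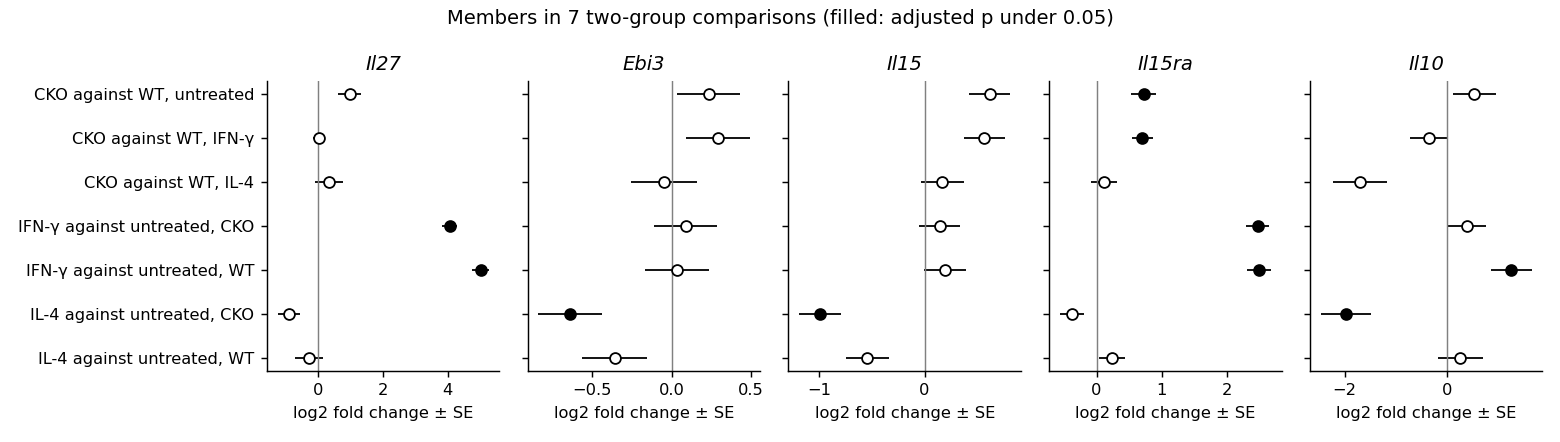
Log2 fold change with its SE (horizontal axes, scaled per gene) of Il27, Ebi3, Il15, Il15ra and Il10 in 7 comparisons of 2 groups, with filled points for adjusted p under 0.05. Il27 and Il15ra lie far right of 0 with IFN-γ in both genotypes, and Ebi3, Il15 and Il10 lie left of 0 with filled points for IL-4 in CKO.

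In the order of the 6 group means, Il15ra ran from CKO IFN-γ (28.6 CPM) and WT IFN-γ (17.6) through untreated CKO (5.16), CKO IL-4 (3.97) and WT IL-4 (3.66) to untreated WT (3.11), 9.22-fold from end to end. Its first 3 groups were separated by more than the spread of their libraries, and untreated CKO, CKO IL-4 and WT IL-4 overlapped in turn. For Il27 the range was 40.2-fold, with overlap between CKO IFN-γ and WT IFN-γ and between CKO IL-4 and untreated WT. Ebi3 spanned 1.66-fold and each group overlapped its neighbour. Il15 spanned 2.47-fold, and the only neighbours to overlap were CKO IFN-γ with untreated CKO and CKO IL-4 with WT IL-4. Il10 spanned 6.53-fold, and WT IFN-γ overlapped CKO IFN-γ, as did untreated CKO, WT IL-4 and untreated WT in turn.

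Il27 and Il15ra had a Pearson correlation of log2 CPM of 0.973 over the 12 libraries, and both were highest after IFN-γ. They differed by label there, with Il15ra at a mean of 28.6 CPM in CKO and 17.6 CPM in WT. Il27 averaged 9.61 CPM in CKO and 9.56 CPM in WT. Among 10286 genes with a mean log2 CPM of at least 1, those most like Il27 were Fam26f (0.997), Gbp4 (0.995), a guanylate-binding protein, and Parp11 (0.994). Those most like Il15ra were Dtx3l (0.996), the class I gene H2-Q4 (0.995) and Mndal (0.994). Il15 was most like Dhrs7 (0.974), Scaper (0.972) and Lst1 (0.971). Ebi3 came closest to Ier2 (0.936), Mepce (0.928) and Hmgxb4 (0.923), and Il10 to Ccm2 (0.866), Zfp747 (0.864) and Cadm1 (0.861). These are descriptions over libraries that share 6 groups.

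The receptors through which these cytokines act were described by ligand, whatever their test, a choice made after their values were seen. For IL-12, Il12rb1, which also serves IL-23, stood at 105 and 116 CPM in CKO and 315 and 352 CPM in WT after IFN-γ, and at 0.873 and 0.894 CPM in CKO and 2.06 and 2.46 CPM in WT without cytokine. CKO libraries were below WT libraries in both conditions. It rose with IFN-γ by 6.96 ± 0.15 in CKO (adjusted p = 5.35e-11) and 7.20 ± 0.15 in WT (adjusted p = 3e-11), and was lower in CKO than in WT after IFN-γ (-1.59 ± 0.11, adjusted p = 3.35e-06) and without cytokine (-1.35, adjusted p = 0.000691). The second IL-12 chain, Il12rb2, averaged 69.5 ± 5.51 CPM in CKO and 137 ± 27.7 CPM in WT after IFN-γ (SD, n = 2 each), and CKO was lower (-0.98, adjusted p = 0.00149). Il23r had 9 counts in each CKO library after IFN-γ and 0 to 3 counts in every other library.

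For IL-15, the chain shared with IL-2 and other cytokines, Il2rg, stood at 129 and 132 CPM in CKO and 60.8 and 73.4 CPM in WT after IFN-γ, against 11.7 and 17.3 CPM in CKO and 14.9 and 16.6 CPM in WT without cytokine. It rose by 3.16 in CKO (adjusted p = 4.86e-08) and 2.09 in WT (adjusted p = 1.56e-06). The signalling chain Il2rb had 0 or 1 counts in each library. For IL-27, Il27ra rose with IL-4, to 1.32 ± 0.16 CPM in CKO against 0.109 ± 0.114 CPM without cytokine (3.68, adjusted p = 0.000815), and to 1.39 ± 0.19 CPM in WT against 0.137 ± 0.095 CPM (3.30, adjusted p = 0.0018; SD, n = 2 each). The untreated levels of Il27ra rest on 1 and 5 counts in CKO and 2 and 6 counts in WT, near the floor of 3 counts. The sizes of its rises are therefore uncertain. The partner chain of Il27ra, Il6st, shared with IL-6, rose with IL-4 by 1.45 in CKO (adjusted p = 4.19e-06) and 1.19 in WT (adjusted p = 2.52e-05).

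For IL-10, Il10ra stood at 93.5 and 112 CPM in CKO and 110 and 112 CPM in WT after IFN-γ, and at 66.7 and 108 CPM in CKO and 42.8 and 43 CPM in WT without cytokine. The change with IFN-γ was 0.23 in CKO (adjusted p = 0.507) and 1.37 in WT (adjusted p = 0.00116), and the responses differed by -1.14 (adjusted p = 0.107). Il10rb fell with IFN-γ by 0.53 in CKO (adjusted p = 0.000474) and by 0.71 in WT (adjusted p = 4.9e-05). For IL-6, Il6ra was higher in CKO than in WT after IL-4 (0.80, adjusted p = 0.00644) and without cytokine (0.59, adjusted p = 0.0115). The IL-4 call was lost in 3 and the untreated call in 2 of 11 alternatives.

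The counts over lists that follow can be set beside the share of all tested genes called, which was 26.6% in CKO and 24.2% in WT with IFN-γ, 22.5% in CKO and 12.2% in WT with IL-4, and between the labels 18.4% after IFN-γ, 2.96% after IL-4 and 18% without cytokine. Several of the counts lie near that share, and nothing particular to a list is read from them. Of 13 tested receptor genes, IFN-γ raised 5 and lowered 2 in CKO and raised 6 and lowered 1 in WT. IL-4 raised 5 and lowered 3 in CKO (0 lowered without CKO IL-4 library 2 and 1 without either untreated CKO library). In WT, IL-4 raised 5, with 3 without WT IL-4 library 1 or untreated WT library 2, and lowered 3, with 1 without WT IL-4 library 2 or untreated WT library 1. Between the labels, 2 were higher and 3 lower in CKO after IFN-γ. After IL-4, 1 was higher, with 0 to 3 on leaving out single libraries, and 2 lower, with 1 on leaving out any of the 4. Without cytokine 4 were higher in CKO, with 1 without CKO library 1 and 0 without either WT library, and 3 were lower (2 without CKO library 1). The 3 lower in CKO without cytokine were Il7r, Il12rb1 and Il21r.

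**Figure D4:**
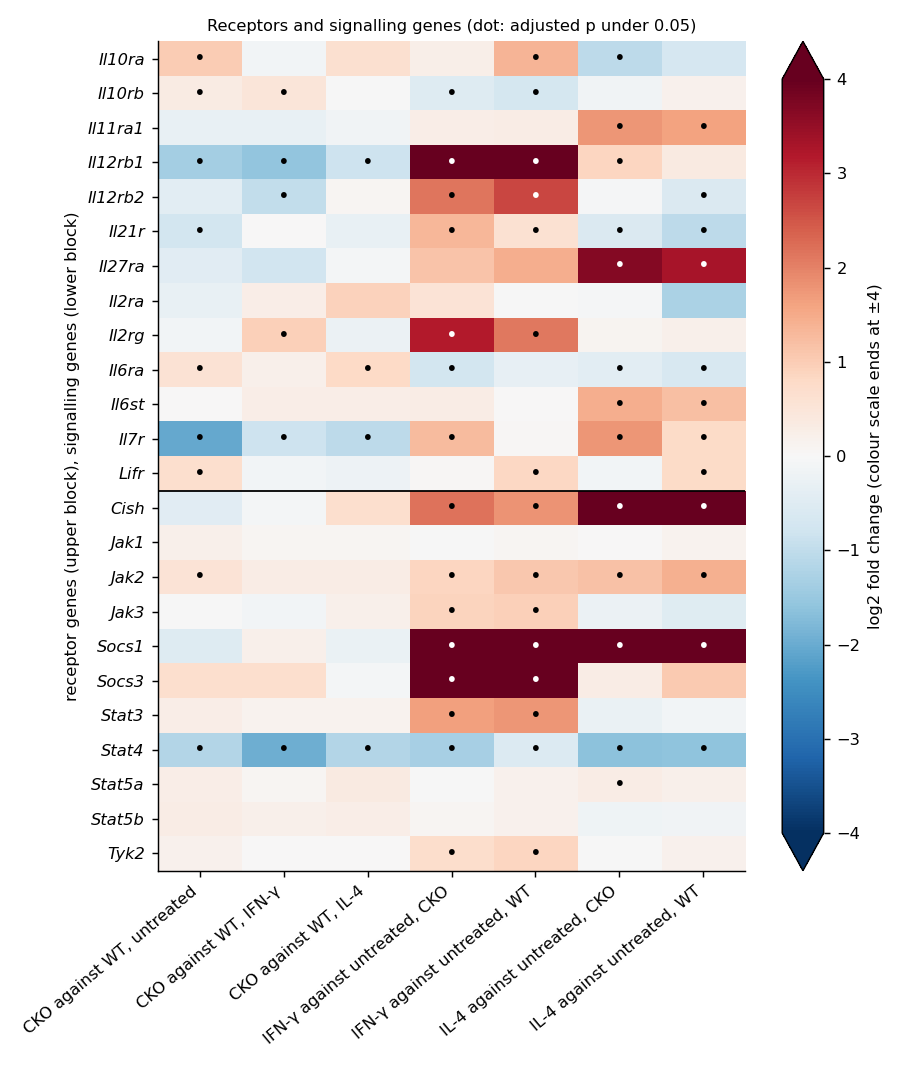
Log2 fold change (colour, scale ending at 4 in either direction) of 13 receptor genes above the line and 11 signalling genes below it, in 7 comparisons along the horizontal axis, with a dot for adjusted p under 0.05. Il12rb1, Socs1 and Socs3 are dark red in the IFN-γ columns, Cish and Il27ra in the IL-4 columns, and Stat4 is blue in all 7. Il27ra had only 1 to 6 counts per untreated library.

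Downstream, Stat4, which carries the IL-12 signal, was the signalling gene called lower in CKO in all 3 conditions. It averaged 2.26 CPM in CKO and 8.7 CPM in WT after IFN-γ (-1.94, adjusted p = 8.42e-05), 1.81 CPM in CKO and 4.12 CPM in WT after IL-4 (-1.18, adjusted p = 0.0136), and 5.66 CPM in CKO and 12.8 CPM in WT without cytokine (-1.17, adjusted p = 0.00199). The IL-4 call was lost in 3 of 11 alternatives, at adjusted p up to 0.229. Stat3, which carries IL-6 and IL-10 signals, rose with IFN-γ by 1.63 in CKO (adjusted p = 3.7e-07) and 1.76 in WT (adjusted p = 2.15e-07). Of the 11 signalling genes, IFN-γ raised 7 and lowered 1 in each genotype, and the count lowered in WT was 0 on leaving out any of the 4 WT libraries compared. IL-4 raised 4 (3 without untreated CKO library 1) and lowered 1 in CKO and raised 3 and lowered 1 in WT. Between the labels, 0 were higher and 1 lower in CKO after IFN-γ (1 higher without WT IFN-γ library 2), 0 higher and 1 lower after IL-4 (0 lower without CKO IL-4 library 1 or WT IL-4 library 2), and 1 higher and 1 lower without cytokine (0 higher without CKO library 1 or either WT library, and 2 without CKO library 2).

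Among 21 transcription factors and RNA regulators that include known activators and repressors of these genes, IFN-γ raised 12 and lowered 2 in CKO and raised 11 and lowered 3 in WT, with 1 lowered without WT IFN-γ library 1 or untreated WT library 2. Irf1, an activator of Il12a, Il27 and Il15, averaged 1180 ± 15.4 CPM in CKO and 1030 ± 8.39 CPM in WT after IFN-γ, against 40.2 ± 10.2 CPM in CKO and 22.2 ± 0.18 CPM in WT without cytokine (SD, n = 2 each). It rose by 4.88 in CKO (adjusted p = 2.55e-08) and 5.54 in WT (adjusted p = 1.38e-08). Maf, an activator of Il10, fell with IFN-γ by 0.90 in CKO (adjusted p = 2.66e-05) and by 0.73 in WT (adjusted p = 0.000137), and with IL-4 by 0.93 in CKO (adjusted p = 4.75e-05) and by 0.84 in WT (adjusted p = 0.000138). Maf was picked from the list after its values were seen. IL-4 raised 9 of the 21 (8 without untreated CKO library 1) and lowered 3 in CKO, and raised 8 (5 without untreated WT library 1) and lowered 3 in WT. In CKO against WT, 8 were higher and 1 lower after IFN-γ (2 higher without CKO library 1 and 5 without either WT library), 2 higher and 0 lower after IL-4 (1 higher without CKO library 1 or either WT library), and 6 higher and 2 lower without cytokine (3 higher without CKO library 1 or WT library 2, 2 without WT library 1, and 0 lower without any of these 3). Between the labels, Irf4 was higher in CKO after IFN-γ (1.87, adjusted p = 4.48e-05), after IL-4 (0.85, adjusted p = 0.00597) and without cytokine (1.05, adjusted p = 0.00214). Its IL-4 call was lost in 3 and its untreated call in 1 of 11 alternatives.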

How the data were processed

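RNA was sequenced from marrow-derived mouse macrophages in 12 libraries, prepared with an exome-type library kit, per the labels' protocols. The deposited values are raw counts per gene, made by the authors. The submitters' processing notes name HTSeq 0.6.1, Picard 1.97, TopHat2 2.0.13 and CASAVA 1.8.2, and as builds mm10 and GRCh38, with no roles. Annotation release and strand setting: not given in the sources used here.

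The 9 members and the 9 fixed gene lists (family cytokines, receptors, signalling genes, regulators and markers of 5 sets of cell types) were chosen with earlier results of these data known; some genes of these lists are not reported here. Named list genes are up to 3 called genes of a list with the smallest adjusted p in a comparison, and the 3 genes most correlated with each member. Macrophage markers named outside this rule, such as Csf1r and Adgre1, were chosen after their values were seen.

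Genes were kept by filterByExpr over 6 groups, and edgeR 4.0.16 (R 4.3.3) fitted 6 group means to all 12 libraries (6 residual degrees of freedom, TMM scaling, robust dispersions, two-sided quasi-likelihood F test). P-values were adjusted by Benjamini and Hochberg over all genes of a comparison, with a threshold of 0.05. The 9 comparisons were 3 of CKO with WT, 4 of a cytokine with untreated cells of the same genotype, and 2 interactions. The printed SE divides the size of the log2 fold change by the root of F and is approximate. CPM of genes that failed the filter use library totals. The replicates of a group differed by more than counting noise (chi-square per degree of freedom 4.72 to 83.8). Positions and exon lengths came from GENCODE on GRCm38; the identifiers of Il23a, Ebi3 and Il15 matched without their version. The test was also run on simulated data with independent counts, which cannot check it for links between same-numbered libraries. Alternatives were DESeq2 1.42.0, other scalings and filters, only the compared groups, replicate blocks and leaving out each library, where the fit takes the spread of the lone library from the other groups. Intervals and floors cover counting error only.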

Additional observations from a re-analysis of the deposited data

Results flagged for a closer look

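Of the 5 cytokine and receptor genes that could be tested, 0 had a response that differed between the labels past the threshold by edgeR, with 1 at an unadjusted p under 0.05 for IFN-γ and 2 for IL-4 and 0 called by DESeq2; without the filter on low counts the IL-4 difference of Il10 was called (adjusted p = 0.0351). Among the 13 tested receptors of the fixed lists, 2 genes had a called difference between the labels in their response to IFN-γ (CKO minus WT, log2 scale, edgeR). Of all tested genes, 2.72% were called there. Il7r, the receptor chain of IL-7, rose with IFN-γ by 1.27 in CKO and changed by 0.04 in WT (adjusted p = 0.903), a difference of 1.23 (adjusted p = 0.021) that was lost without either CKO IFN-γ library, WT IFN-γ library 2 or untreated WT library 1, at adjusted p up to 0.103. Il2rg differed by 1.07 (adjusted p = 0.0275), lost in 7 of 16 alternatives, at adjusted p up to 0.105 without single libraries.

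Among the marker genes of cell types, 7 had a called difference between the labels in their response to IFN-γ and 1 in its response to IL-4 (CKO minus WT, log2 scale, edgeR). Those tested were 11 macrophage, 8 dendritic cell, 11 neutrophil, 8 monocyte and 2 lymphoid and mast cell rows. Of all tested genes, 2.72% were called for IFN-γ and 0.0368% for IL-4. Of the macrophage markers, Cd14 differed by 1.75 (adjusted p = 0.000392) and Fcgr1 by 1.18 (adjusted p = 0.00545), both called in all 16 alternatives. Itgam differed by 0.95 (adjusted p = 0.016), lost in 4 of 16 alternatives without single libraries (either CKO IFN-γ library, WT IFN-γ library 1 or untreated WT library 2), and C1qa by 1.91 (adjusted p = 0.0429), lost in 7 of 16 without any 1 of 7 of the 8 libraries compared. Clec9a, a dendritic cell marker with 2 to 8 counts per untreated library, differed by -4.48 (adjusted p = 0.00743) and was called in all 16. Of the monocyte markers, Cx3cr1 differed by 2.69 (adjusted p = 0.00676), called in all 16, and Ccr2 by -1.47 (adjusted p = 0.0149), lost without CKO IFN-γ library 2, WT IFN-γ library 2 or either untreated WT library. Chil3 differed by -2.92 in its response to IL-4 (adjusted p = 0.0165), lost in 6 of 16 alternatives, which were only the compared groups and leaving out either CKO IL-4 library, untreated CKO library 1 or either untreated WT library.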

How the results depend on the processing

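Over the 5 tested genes and 9 comparisons, 485 of 554 alternative values kept direction and side of the threshold, 20 lost a call, 17 gained one and 32 turned sign, all of these last among values that were not called; the cause was not tested. The number of members called moved with DESeq2 to 2 untreated (CKO against WT, reported as 1) and 2 after IFN-γ (reported as 1); with DESeq2 size factors or library totals to 2 untreated; and with no filter to 2 untreated, 2 after IFN-γ, 1 after IL-4, 1 for IL-4 in WT and 1 for the IL-4 interaction. With only the compared groups it was 0 untreated, 2 after IFN-γ, 1 for IL-4 in CKO (reported as 3) and 1 for IL-4 in WT. Leaving out single libraries gave 0 to 2 untreated, 0 to 1 after IFN-γ, 0 to 3 for IL-4 in CKO and 2 to 3 for IFN-γ in WT. Genes called moved with DESeq2 to 42 (IL-4 interaction, reported as 6); with no filter to 1129 (CKO against WT after IL-4, reported as 482), 1019 (IFN-γ interaction, reported as 443) and 291 (IL-4 interaction); and with only the compared groups to 836 (untreated, reported as 2927), 310 (after IL-4), 1216 (IL-4 in CKO, reported as 3664), 3562 (IL-4 in WT, reported as 1992), 289 (IFN-γ interaction) and 0 (IL-4 interaction). Leaving out single libraries gave 866 to 5034 untreated, 1209 to 1890 after IFN-γ, 128 to 651 after IL-4, 2675 to 5256 for IFN-γ in CKO, 2611 to 3121 for IFN-γ in WT, 1725 to 5217 for IL-4 in CKO, 898 to 1072 for IL-4 in WT, 137 to 940 for the IFN-γ and 1 to 329 for the IL-4 interaction. Scaling by library totals turned Il27 CKO against WT after IFN-γ (-0.0432), Ebi3 after IL-4 (0.0301), Ebi3 with IFN-γ in CKO (-0.0747) and WT (-0.0419), Il15 with IFN-γ in CKO (-0.0192) and the IFN-γ interaction of Ebi3 (-0.0328); only the compared groups turned Il27 after IFN-γ (-0.0139). A filter at a mean of 5 CPM in at least 1 group left no value for Il10, and the compared groups alone left none for Il27 with IL-4 in WT or between the genotypes after IL-4.

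Leaving out single libraries gave ranges that cross 0 for CKO against WT after IFN-γ in Il27 (-0.19 to 0.26) and Il10 (-0.60 to 0.016), after IL-4 in Ebi3 (-0.14 to 0.0907), Il15 (-0.14 to 0.45) and Il15ra (-0.21 to 0.41), with IFN-γ in Ebi3 (-0.11 to 0.29 in CKO, -0.25 to 0.28 in WT) and in Il15 in CKO (-0.12 to 0.42), with IL-4 in Il10 in WT (-0.25 to 0.94), and for the IFN-γ interaction in Ebi3 (-0.18 to 0.35), Il15 (-0.32 to 0.22) and Il15ra (-0.17 to 0.0782).

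Samples share only the numbers 1 and 2, whose meaning the labels do not give; deviations of same-numbered libraries over 9318 genes correlated at 0.106 to 0.725 within a genotype and at -0.049 to 0.422 between genotypes. With the replicate block, members called were 2 untreated, 2 after IFN-γ and 1 after IL-4 (Il10), and genes called 860 after IL-4, 732 for the IFN-γ and 26 for the IL-4 interaction. With the block within genotype, 1 member (Il15, -0.54, adjusted p = 0.0144, against 0.123 without the block) was called for IL-4 in WT, and genes called were 3023 there, 1080 for the IFN-γ and 85 for the IL-4 interaction.

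Low counts limit what can be read for Il12a, Il12b, Il23a and Il6 in every group and for Il27 and Il10 outside IFN-γ. The reason for these low counts was not tested.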

Other observations

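Of 16 other cytokines of these families and their neighbours, 4 (Il2, Il7, Osm and Clcf1) passed the filter, and Il19, Il20, Il24 and Il21 had no count in any library. Clcf1, a ligand of the IL-6 family, averaged 2.79 ± 0.10 CPM in CKO and 0.41 ± 0.12 CPM in WT after IFN-γ, and 1.52 ± 0.27 CPM in CKO and 0.414 ± 0.042 CPM in WT without cytokine (SD, n = 2 each). It was higher in libraries labelled CKO after IFN-γ (2.77, adjusted p = 0.00029), after IL-4 (1.82, adjusted p = 0.0245) and without cytokine (1.85, adjusted p = 0.00664). The untreated call was lost in 1 and the IL-4 call in 4 of 10 alternatives. Il7, which like IL-15 signals through the chain encoded by Il2rg, rose with IFN-γ to 1.63 ± 0.38 CPM in CKO against 0.115 ± 0.001 CPM without cytokine (3.77, adjusted p = 3.2e-05), and to 0.817 ± 0.218 CPM in WT against 0.173 ± 0.003 CPM (2.23, adjusted p = 0.00238). The difference between these responses was 1.55 (adjusted p = 0.362). By library total, 3 counts would be 0.119 and 0.0917 CPM in the untreated CKO libraries and 0.106 and 0.105 CPM in the untreated WT libraries. The untreated levels of Il7 thus lie near the floor, and the sizes of its rises are uncertain.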
